A study of Mus musculus with 3 samples.

Results

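Cd226, Tigit, Cd96 and Pvrig encode the paired activating and inhibitory receptors of T and natural killer cells that bind nectins and nectin-like proteins, and their RNA is described here in the T cells of transplanted mice. The genes were taken by name, 4 of the 18029 in the deposited count table. All recipients were B6D2F1 mice (H-2b/d) that had been irradiated the day before receiving bone marrow and T cells of C57Bl/6 (B6, H-2b) donors together with TEa T cells. TEa cells are CD45.1+ T cells of 1 transgenic T cell receptor (TCR) on a Rag1-/- background, which recognize recipient peptide on donor MHC class II. From day 0 to day 6 the recipients had saline, cyclosporin A (CSA) at 5 mg/kg/d or CSA at 50 mg/kg/d, and CSA is a calcineurin inhibitor that keeps NFAT transcription factors out of the nucleus. Spleens were taken on day 7 from 6 mice per group and combined by 2, which gave 3 pools per group and 9 in all, told apart by hashtag antibodies, so that a pool is the replicate and a single mouse was not measured. CD4+ and CD8+ T cells were sorted, mixed in equal numbers and loaded as 1 droplet capture per group, and capture and treatment cannot be told apart in any comparison between groups. The sort used CD90.2 beside CD4 and CD8, and CD90.2 is also carried by recipient T cells. The ages of the mice were not given in the sources used here, and the study used both sexes.

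CD226 (DNAM-1) is a costimulatory receptor that signals together with the integrin LFA-1. TIGIT and CD96 share its ligands, CD155 (Pvr) and, for TIGIT, CD112 (Nectin2), TIGIT binds CD155 more tightly than CD226 does, and it recruits inhibitory phosphatases through its tail. PVRIG is the inhibitory receptor for CD112. In graft-versus-host disease (GVHD) and tumours the balance between CD226 and its inhibitory partners has been linked to the responses of effector and regulatory T cells.

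Both Tigit and Cd96 lie on the reverse strand of chromosome 16, separated by 2371510 bases, at chr16:43648867-43664146 (15280 bases, ENSMUSG00000071552.5) and chr16:46035657-46120251 (84595 bases, ENSMUSG00000022657.9). Pvrig is a short gene on the forward strand at chr5:138341961-138343557 (1597 bases, ENSMUSG00000109713.1). These positions are of GRCm38, the assembly called mm10 in the submitters' processing notes. The 250 bases before the RefSeq start of 3 of the 4 genes are shown because CSA acts on NFAT, and each match to the NFAT core GGAAA, on either strand, is in capitals. Tigit is read from chr16:43664185-43664434, Cd96 from chr16:46120249-46120498, both on the reverse strand, and Pvrig from chr5:138341681-138341930 on the forward strand (RefSeq, GRCm38.p6).
Tigit: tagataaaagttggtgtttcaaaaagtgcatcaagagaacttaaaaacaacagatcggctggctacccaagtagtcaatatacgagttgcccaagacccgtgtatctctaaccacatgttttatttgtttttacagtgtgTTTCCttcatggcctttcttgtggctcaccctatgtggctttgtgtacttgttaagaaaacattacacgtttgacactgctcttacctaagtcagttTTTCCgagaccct
Cd96: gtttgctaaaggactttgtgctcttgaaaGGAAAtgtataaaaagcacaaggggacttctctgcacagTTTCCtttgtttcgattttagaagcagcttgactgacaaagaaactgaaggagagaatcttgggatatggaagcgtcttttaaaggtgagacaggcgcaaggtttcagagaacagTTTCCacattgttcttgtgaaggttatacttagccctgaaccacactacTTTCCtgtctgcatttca
Pvrig: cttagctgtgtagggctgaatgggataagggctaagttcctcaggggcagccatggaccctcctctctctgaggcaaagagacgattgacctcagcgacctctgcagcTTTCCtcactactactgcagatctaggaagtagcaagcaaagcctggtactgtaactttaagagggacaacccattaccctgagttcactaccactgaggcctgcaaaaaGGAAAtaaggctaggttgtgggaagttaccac
The Tigit and Pvrig stretches each held 2 matches and the Cd96 stretch held 4. Of all 32851 promoters of the same length, 55.57% held at least 1 match and 1.589% held 4 or more. TGANTCA, the letters of an AP-1 site, had no match in the 3 stretches and was found in 6.749% of all promoters. A match of these letters is a description of the sequence and not a measured binding site.

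The table held 10371 CD4+ and 10833 CD8+ T cells, of which 280 were TEa cells and were left out unless stated. A pool held 692 to 1615 cells of a lineage and 3994968 to 11454636 UMIs (unique molecular identifiers, counted RNA molecules) in them. Median depth differed between captures, at 3107, 4416 and 5998 UMIs per CD4+ cell and 4108, 6121.5 and 7183 per CD8+ cell with saline, 5 and 50 mg/kg. The deposited table marked 0 cells as doublets, and 218 cell barcodes occurred in 2 captures. All 5 T cell markers were above 0 in every pool. The summed regulatory T cell list (Foxp3, Il2ra and Ikzf2, 3 of 3 above 0) fell with dose, from 224 to 234 CPM (counts scaled to a fixed library total) over saline CD4+ pools to 119 to 148 and 59.7 to 61.2, and its part in the results on CD4+ T cells was not tested beyond the value without the regulatory and Fcer1g-high clusters given below. It fell in CD8+ pools too, from 124.9 to 130.2 CPM to 60.1 to 72.5 and 28.6 to 34.5. The CD4+ cluster of regulatory T cells (C11) had 59 cells in 3 pools at 50 mg/kg. With saline and 5 mg/kg only 1 pool each held at least 10 of them, with 10 and 11 cells. The summed list thus did not follow the size of that cluster. Natural killer cell genes (9 listed, at least 6 above 0) summed to 1330 to 1432, 1175 to 1238 and 1330 to 1460 CPM in CD4+ and to 2905 to 2960, 2939 to 3051 and 2748 to 2981 CPM in CD8+ pools. Most of each sum was Nkg7. Per lineage and group, Ncr1 had between 0 and 7 UMIs, Klrb1c 10 to 176 and Klre1 22 to 247. From saline to 50 mg/kg Klrb1c went from 6.31 to 0.479 CPM in CD4+ and 6.46 to 0.738 in CD8+ T cells. Klrk1 went from 26.6 to 74.6 and from 140 to 277 CPM. The part of these genes was not tested. The B cell and erythroid lists were above saline at 50 mg/kg in both lineages (B cell, 184.6 to 211.8 against 279.9 to 426.5 CPM; erythroid, 3.21 to 17.6 against 23.75 to 48.12 CPM), and their part was not tested. The myeloid list overlapped between groups. Cd4 had 0 UMIs in CD8+ and Cd8a 0 UMIs in CD4+ T cells of every group. Cd8b1 was at 147.1, 91.74 and 23.26 CPM in CD4+ T cells with saline, 5 and 50 mg/kg, and at 1307, 1445 and 2692 CPM in CD8+ T cells. The part of this Cd8b1 RNA in the results on CD4+ T cells and in the comparison of the lineages was not tested.

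Cd226 RNA (ENSMUSG00000034028.16, chr18:89176967-89272229, forward strand, 95263 bases) fell with dose in CD4+ T cells. It was at 129.4, 118.8 and 133.2 TMM-normalized CPM in the 3 saline pools, at 75.4, 93.1 and 84.7 with 5 mg/kg and at 47.2, 43.2 and 42.0 with 50 mg/kg. No pool of one group reached another group's values. The fall was 0.59 on the log2 scale (SE 0.07, adjusted p = 4.77e-07) at the lower and 1.53 (SE 0.07, adjusted p = 1.01e-13) at the higher dose by edgeR's quasi-likelihood test, and from 5 to 50 mg/kg Cd226 fell by 0.94 (adjusted p = 5.7e-09). Of the 10568 genes tested in CD4+ T cells, 51.7% passed at 5 mg/kg, 70.5% at 50 mg/kg and 41.2% between the doses, so that a call alone does not set a gene apart.

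Tigit moved in opposite directions at the 2 doses. The CD4+ pools held 257.0, 244.6 and 245.9 CPM with saline, 380.6, 329.9 and 328.6 with 5 mg/kg and 72.2, 56.6 and 66.9 with 50 mg/kg. Every 5 mg/kg pool was above every saline pool and every 50 mg/kg pool below. At 5 mg/kg Tigit rose by 0.47 on the log2 scale (SE 0.06, edgeR adjusted p = 1.29e-06), and it fell by 1.93 at 50 mg/kg (SE 0.07, adjusted p = 1.07e-15). The step between the doses was -2.41 (adjusted p = 1.91e-16). The rise at 5 mg/kg depended on scaling: by library size alone, where the median of all genes shifted by -0.37 at 5 and -0.45 at 50 mg/kg, Tigit differed by 0.11 and did not pass, while it lay above that median, and the fall at 50 mg/kg kept its sign. Without clusters C8 (Fcer1g-high) and C11 (regulatory T cells) the changes were 0.46 and -1.95 for Tigit and -0.60 and -1.53 for Cd226.

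Cd96 stayed within a narrow range in CD4+ T cells. Its values were 105.8, 100.1 and 107.9 CPM with saline, 100.4, 100.1 and 98.4 with 5 mg/kg and 100.1, 97.3 and 92.0 with 50 mg/kg. The groups overlapped or touched, and the changes of -0.07 (SE 0.06, edgeR adjusted p = 0.306) and -0.12 (SE 0.05, adjusted p = 0.0567) did not pass. The second passed when 50 mg/kg pool 1 (-0.14) or saline pool 2 (-0.15) was left out. By library size Cd96 fell with the median of all genes, by 0.43 and 0.56, and both passed.

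Pvrig was scarcely detected. The CD4+ pools held 22, 24 and 19 UMIs with saline, 17, 18 and 35 with 5 mg/kg and 13, 14 and 17 with 50 mg/kg. These gave 4.6, 3.6 and 2.9, then 4.4, 4.1 and 6.1, then 2.2, 2.3 and 2.5 CPM, so that the 50 mg/kg pools lay lowest. Neither change from saline passed in edgeR (0.46, SE 0.26, adjusted p = 0.156, and -0.60, SE 0.29, adjusted p = 0.0682), and the second passed without saline pool 3 (-0.75). From 5 to 50 mg/kg Pvrig fell by 1.06 (SE 0.28, adjusted p = 0.00493), and this no longer passed without 5 mg/kg pool 3 (-0.82).

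All 4 genes were lower in CD8+ T cells at 50 mg/kg. Cd226 was at 282.1, 266.5 and 269.6 CPM with saline, at 148.7, 156.3 and 175.0 with 5 mg/kg and at 74.2, 77.9 and 66.9 with 50 mg/kg. The 3 groups were separate, and Cd226 fell by 0.76 (SE 0.06, edgeR adjusted p = 4.01e-09) and 1.91 (SE 0.06, adjusted p = 1.17e-14) on the log2 scale. Of 10841 genes tested, 60.2% passed at 5 mg/kg, 74.0% at 50 mg/kg and 41.0% between the doses.

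Tigit in CD8+ T cells was at 205.0, 201.0 and 205.6 CPM with saline, 278.3, 239.6 and 264.2 with 5 mg/kg and 95.6, 96.0 and 137.5 with 50 mg/kg. The order of the groups was that of CD4+ T cells, and 50 mg/kg pool 3 stood above the other two of its group. The rise was 0.35 (SE 0.09, edgeR adjusted p = 0.00323) and the fall at 50 mg/kg was -0.88 (SE 0.10, adjusted p = 1.87e-07), between -1.09 and -0.79 when a pool was left out. Here too the rise depended on the scaling, since by library size Tigit differed by -0.07 and did not pass, against a median of all genes of -0.43, and it did not pass with DESeq2 either.

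Cd96 in CD8+ T cells fell stepwise, from 104.8, 101.3 and 103.1 CPM with saline to 91.7, 78.9 and 79.7 with 5 mg/kg and 70.3, 65.7 and 63.8 with 50 mg/kg. The groups did not overlap. The falls were 0.32 (SE 0.06, edgeR adjusted p = 0.000192) and 0.63 (SE 0.06, adjusted p = 2.15e-08) on the log2 scale, with 0.32 more between the doses (adjusted p = 0.000648). Pvrig had 37, 43 and 39 UMIs in the saline pools, 13, 20 and 29 with 5 mg/kg and 10, 10 and 11 with 50 mg/kg, or 4.5, 4.3 and 4.1, then 3.2, 3.6 and 3.7, then 1.4, 1.3 and 1.1 CPM. It fell by 1.75 at 50 mg/kg (SE 0.23, adjusted p = 2.45e-06) and its change of -0.27 at 5 mg/kg (adjusted p = 0.296) did not pass.

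**Figure D1:**
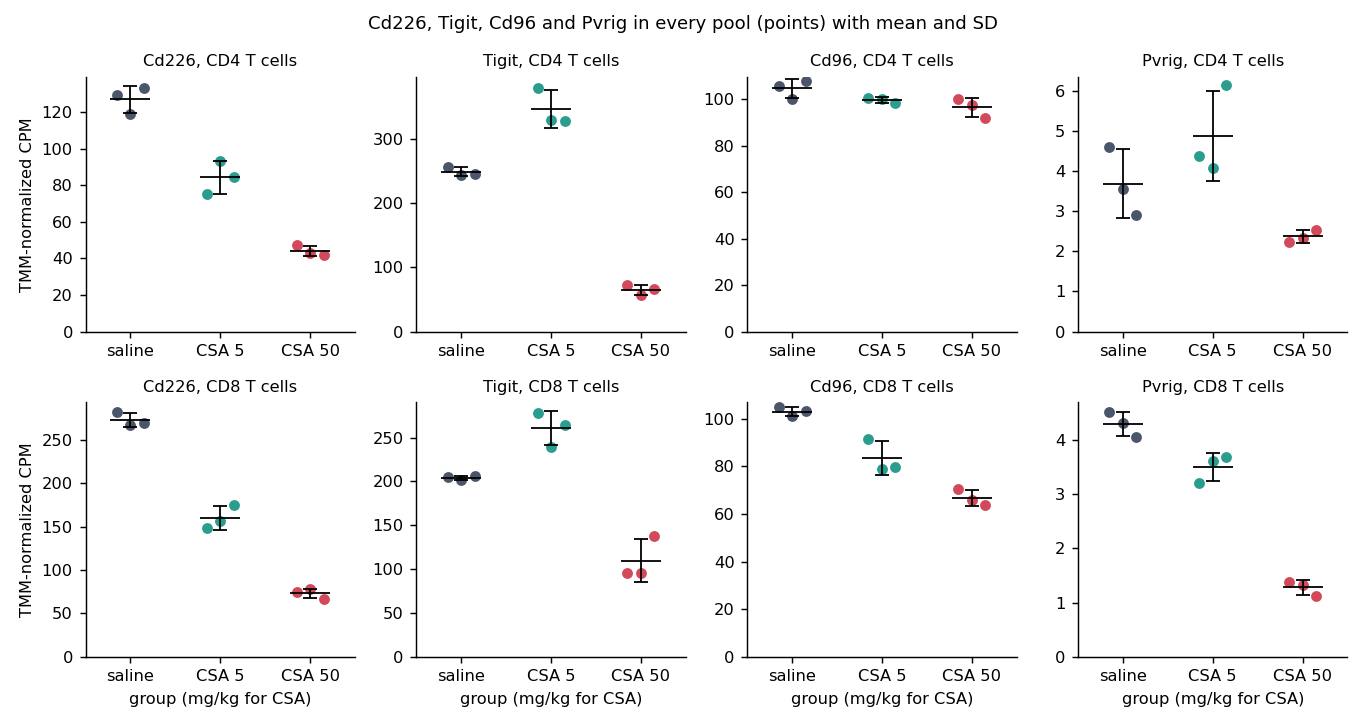
Level of Cd226, Tigit, Cd96 and Pvrig in each pool, in TMM-normalized CPM, for CD4+ and CD8+ T cells with saline, CSA 5 mg/kg and CSA 50 mg/kg. Points are the 3 pools of a group with their mean and SD; on this scale Tigit is highest at 5 mg/kg and lowest at 50 mg/kg in both lineages, though by library size alone its difference at 5 mg/kg is 0.11 in CD4+ and -0.07 in CD8+ T cells, while Cd226 falls from 127.2 to 84.38 and 44.12 in CD4+ T cells (means).

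The change differed between the lineages for each gene at the higher dose. The difference of the log2 change, CD8+ minus CD4+, was 1.02 for Tigit (SE 0.09, edgeR interaction term, adjusted p = 2.2e-08), -0.40 for Cd226 (SE 0.08, adjusted p = 0.00104) and -0.54 for Cd96 (SE 0.07, adjusted p = 4.75e-06). Tigit thus fell less in CD8+ than in CD4+ T cells, and Cd226 and Cd96 fell more. For Pvrig the difference was -1.17 (SE 0.38, adjusted p = 0.033), and it did not pass without any of 5 single pools (-1.27, -1.21 and -1.02 without 50 mg/kg pools 1, 2 and 3, -1.15 and -1.06 without saline pools 2 and 3). Of 11001 genes, 19.8% passed this test for the higher dose and 3.65% for the lower. At the lower dose Cd96 passed (-0.28, SE 0.07, adjusted p = 0.0342) but not without 5 mg/kg pool 2 (-0.24) or 3 (-0.25) or saline pool 1 (-0.27), 2 (-0.26) or 3 (-0.30), and Cd226 (-0.20), Tigit (-0.15) and Pvrig (-0.77) did not pass.

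The authors' clusters, 13 of CD4+ and 9 of CD8+ T cells, were made from these same counts, and Cd226 is among the genes that name some of them, so levels across clusters are a description. With saline, Cd226 in CD4+ T cells was highest in C0 (Cd226-high effectors) at 256 ± 33.2 CPM (SD, n = 3), in C5 (cycling) at 218 ± 30.1 and in C6 (Cd226-high cycling) at 194.5 ± 7.9. It was lowest in C2 (Tcf7-high, precursor-like) at 47.8 ± 4.3 and C9 (naive) at 60.2. Only 2 of 10 neighbouring pairs in this order had pools that did not overlap. Across CD8+ clusters it ran from 489 ± 11.7 in C0 (Cd226-high effectors) through 391 in C4 (Cd226-high cycling) and 360 in C8 (exhausted) to 199 in C1 (Cd226-low effectors) and 91.5 ± 4.5 in C7 (naive), with 3 of 8 neighbouring pairs separate.

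Tigit had another order. Among the CD4+ clusters with at least 2 pools it was highest in C4 (follicular helper) at 426 ± 39.6 CPM, then 352 in C2, where Cd226 was lowest, 323 in C1 (Cd226-low effectors) and 322 in C0, and it was 88.4 in naive C9. C11 (regulatory T cells) stood above them at 479 CPM, from 17 UMIs in 10 cells of 1 pool, and was not ranked. Again 2 of 10 neighbouring pairs were separate. Of the CD8+ clusters, C1 (372 ± 39.8), C0 (340.0) and C5 (Tcf7-high, 329) led, and naive C7 had 36.6 ± 9.9. Across clusters with saline, which share pools and libraries, Pearson's r between Cd226 and Tigit was -0.03 over 11 CD4+ clusters and 0.51 over 9 CD8+ clusters, and between Cd226 and Cd96 0.63 and 0.76.

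Cd96 was highest in C0 of both lineages, at 223 ± 3.6 CPM in CD4+ and 225 ± 6.8 in CD8+ T cells. Its lowest CD4+ clusters were C3 (Cd226-low cycling, 66.9) and C2 (63.9), and its lowest CD8+ cluster was naive C7 (90.7). Pvrig with saline was at 8.0 CPM in CD4+ C0 (24 UMIs) and 12.3 in CD8+ C0 (35 UMIs), and 0 UMIs were seen in the 450 cells of CD4+ C2, which allows up to 1.86 CPM. No neighbouring pair was separate for Pvrig.

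**Figure D2:**
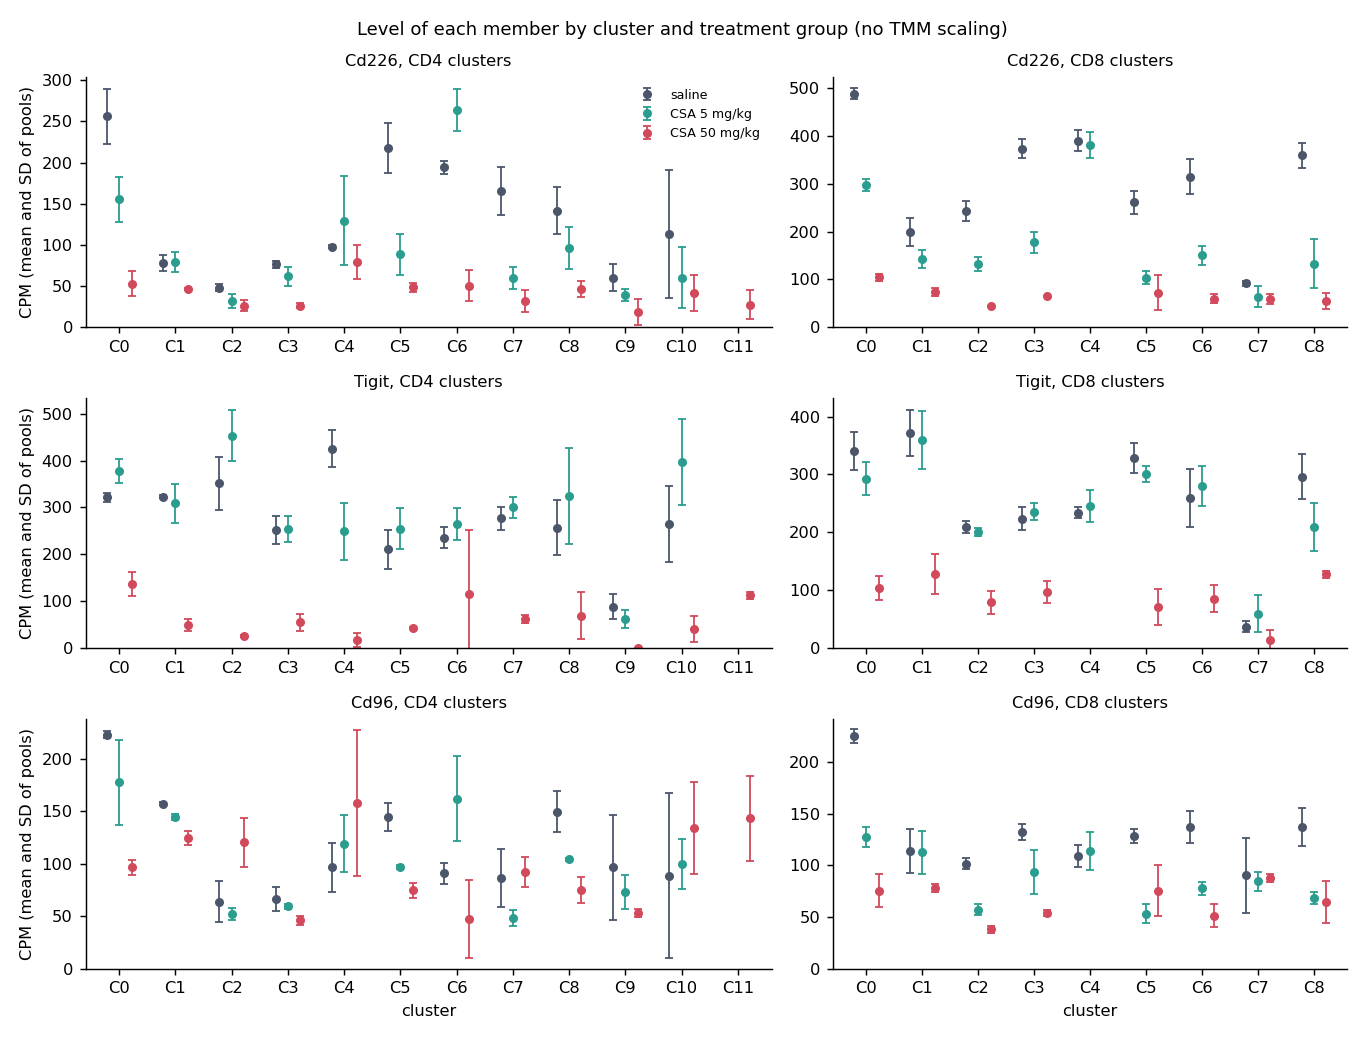
Level of Cd226, Tigit and Cd96 in each cluster with saline, CSA 5 mg/kg and CSA 50 mg/kg, in CPM without TMM scaling, for CD4+ and CD8+ T cells. Points are means over pools and bars are SD, cut at 0 where the SD exceeds the mean, and groups with fewer than 2 pools in a cluster are not drawn; with saline Cd226 is highest in C0 (256 and 489) and Tigit is highest in C4 of the CD4+ (426) and C1 of the CD8+ clusters (372).

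Within clusters, the fall of both receptors at 50 mg/kg was seen in most. Since the clusters were made from these counts, a change of what a cluster holds is part of such values and was not tested. In CD4+ T cells Cd226 fell in 8 of the 9 clusters tested (-2.05 to -0.64, not in C4) and Tigit in 9 of 10 (fitted changes of -4.36 to -0.79, not in C6), where 15.4% of all gene-by-cluster tests were lower and 14.8% higher. Among CD8+ clusters Cd226 fell in 7 of 8 (-2.28 to -1.24) and Tigit in 7 of 8 (-1.63 to -0.72), against 22.1% lower and 21.3% higher over all genes, and naive C7 was the exception for both. In that cluster the changes were -0.64 for Cd226 (edgeR adjusted p = 0.362) and -1.31 for Tigit (adjusted p = 0.433). Cluster C6 of the CD4+ cells held 27 cells in 2 pools at this dose, and CD8+ C4 had no pool with enough cells.

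The size of the Tigit fall differed widely between CD4+ clusters. In C0 the pools held 285.3, 267.9 and 276.8 CPM with saline, 348.1, 429.7 and 398.9 with 5 mg/kg and 131.7, 156.1 and 193.9 with 50 mg/kg. The last change was -0.79 (SE 0.12, edgeR adjusted p = 2e-07). In C1 the values were 317, 316.5 and 309.1 CPM with saline, 361, 274.1 and 329.6 with 5 mg/kg and 41.7, 44.2 and 66.5 with 50 mg/kg, a change of -2.62 (SE 0.14, adjusted p = 7.99e-21). At 50 mg/kg the C1 pools (Cd226-low effectors) thus all lay below the C0 pools (Cd226-high effectors), and the difference between the changes of the clusters was not tested. In C4 (follicular helper) only 45 cells were left at 50 mg/kg, with 2 Tigit UMIs against 820 in 733 saline cells, a ratio of 0.0427 per UMI counted (95% exact interval 0.00517 to 0.155, counting error only). In naive C9, Tigit had 0 UMIs in 94 cells at 50 mg/kg, which allows a share of up to 3.19% of cells with a UMI.

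Cd226 in the same C4 cells did not show a fall. Its values were 115.4, 114.8 and 118.9 CPM with saline, 94.1, 172.7 and 229.2 with 5 mg/kg and 134.5, 96.6 and 81.4 with 50 mg/kg, the last from 5, 2 and 2 UMIs. The change of -0.09 (SE 0.51) was not detectable at this depth. In C0, Cd226 was at 243.1, 187.7 and 230.1 CPM with saline, 175.6, 168.1 and 135.2 with 5 mg/kg and 82.0, 49.9 and 54.2 with 50 mg/kg, without overlap. It fell by 0.49 at 5 mg/kg (SE 0.14, edgeR adjusted p = 0.0081), which did not pass without 5 mg/kg pool 3 (-0.35) or saline pool 1 (-0.42), and at 50 mg/kg it fell by 1.80 (SE 0.15, adjusted p = 2.43e-14). In C1 the fall at 50 mg/kg of 0.64 (adjusted p = 0.0075) did not pass without saline pool 2 (-0.52), and that in C2 of 0.74 (adjusted p = 0.0469) did not pass in 6 of 9 omissions of a pool. With DESeq2 these calls in C0 at 5 mg/kg (-0.48), C1 (-0.62) and C2 (-0.73) were lost too.

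At 5 mg/kg the clusters were divided. Cd226 fell in C0, C5 (-0.94) and C7 (CD4+ cytotoxic cells, -1.11) and rose in C6, 3 lower and 1 higher of 9, and Tigit rose in C0, C2, C5, C7 and C10 (Isg15-high) and fell in C4, 5 higher and 1 lower of 10, where 5.53% of all gene-by-cluster tests in CD4+ T cells were lower and 7.49% higher. By library size the Tigit differences were 0.24 in C0, 0.27 in C5, 0.09 in C7 and 0.56 in C10 and did not pass. The Tigit calls in C7 and C10 were also lost with DESeq2 (0.46 and 0.95), that in C7 without 5 mg/kg pool 2 (0.40) or saline pool 2 (0.36), and that in C10 without pool 2 (0.72) or 3 (0.89) of 5 mg/kg or pool 2 (0.67) or 3 (0.91) of saline. In C6 (Cd226-high cycling), Cd226 was at 205.7, 204.3 and 219.5 CPM with saline and 257.2, 313.9 and 293.3 with 5 mg/kg, a rise of 0.45 (SE 0.15, edgeR adjusted p = 0.0435). All 5 mg/kg pools lay above all saline pools there, but the call was lost by library size (0.43) and when any of the 6 pools was left out (0.37 to 0.52). Tigit in C4 was at 479.7, 562.2 and 480.9 CPM with saline and 411.8, 251.2 and 298.0 with 5 mg/kg, a fall of 0.64 (SE 0.18, adjusted p = 0.0147), which did not pass without 5 mg/kg pool 2 (-0.52) or 3 (-0.58) or saline pool 2 (-0.57), nor with DESeq2 (-0.63).

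In CD8+ T cells at 5 mg/kg, Cd226 fell in 6 of 9 clusters (-1.02 to -0.36), Cd96 in 3 and Tigit in none, while Tigit rose in 1, against 9.46% lower and 11.0% higher over all gene-by-cluster tests. The Cd96 fall in C0 (adjusted p = 0.038) was lost with DESeq2 (-0.47) and without any of 5 single pools (-0.53, -0.46 and -0.41 without 5 mg/kg pools 1, 2 and 3, -0.46 and -0.48 without saline pools 2 and 3). In C0 the Cd226 pools held 414.2, 390.6 and 396.7 CPM with saline, 310.8, 325.1 and 303.6 with 5 mg/kg and 135.9, 125.3 and 116.4 with 50 mg/kg. The groups were separate, with falls of 0.36 (SE 0.11, edgeR adjusted p = 0.0132) and 1.65 (SE 0.09, adjusted p = 7.24e-26), the first of which did not pass without 5 mg/kg pool 3 (-0.33). In C4 (Cd226-high cycling) the level was 414.8, 367.1 and 394.4 CPM with saline and 343.7, 412.3 and 411.1 with 5 mg/kg, and the pools overlapped (0.02, SE 0.13, adjusted p = 0.975). Tigit in C3 (cycling) went from 181.5, 206.2 and 174.9 CPM to 250.7, 240.9 and 266.4 with 5 mg/kg (0.43, SE 0.11, adjusted p = 0.00209, and 0.08 by library size, which did not pass) and to 103.2, 93.5 and 137.0 with 50 mg/kg (-0.72).

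Cd96 in CD4+ T cells, near level in the sum, moved both ways within clusters. At 50 mg/kg it fell in C0 (-0.75, edgeR adjusted p = 1.62e-06), C5 (-0.59, adjusted p = 0.00121) and C8 (-0.76, adjusted p = 0.0155) and rose in C2. That is 3 lower and 1 higher of 10 clusters tested, where 15.4% of all gene-by-cluster tests in CD4+ T cells were lower and 14.8% higher. Calls in both directions were thus common over all genes and do not set Cd96 apart. The fall in C8 was lost with DESeq2 (-0.72) and without 50 mg/kg pool 2 (-0.55) or saline pool 1 (-0.62). In C2, the Tcf7-high cluster, it was at 73.6, 39.3 and 71.4 CPM with saline and at 142.6, 145.9 and 99.8 with 50 mg/kg, without overlap (1.07, SE 0.20, adjusted p = 4.02e-05). At 5 mg/kg Cd96 rose in C6, from 110.5, 88.8 and 95.5 to 225.7, 154.2 and 149.9 CPM (0.88, SE 0.20, edgeR adjusted p = 0.00464), but this did not pass without 5 mg/kg pool 1 (0.63). It was 1 of 10 clusters tested, where 7.49% of all gene-by-cluster tests were higher. Of 8 CD8+ clusters, Cd96 fell at 50 mg/kg in C0, C2, C3 and C6, 4 lower and 0 higher, against 22.1% lower and 21.3% higher over all gene-by-cluster tests. In C0 it went from 181.3, 188.8 and 183.3 CPM to 147.2, 131 and 125.6 and to 111, 72.5 and 89.1 (-1.03 at 50 mg/kg, SE 0.12, adjusted p = 3.75e-11). Pvrig passed the filter on low counts in CD8+ C0 only, its highest CD8+ cluster with saline. The UMIs were 13, 9 and 13 in the saline pools, 0, 2 and 5 with 5 mg/kg and 0, 2 and 2 with 50 mg/kg. The fitted log2 change at 50 mg/kg was -2.47 (SE 0.65, edgeR adjusted p = 0.000887). Such a filter favours a cluster where the saline counts are high, so this call is a description and not support for a fall.

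**Figure D3:**
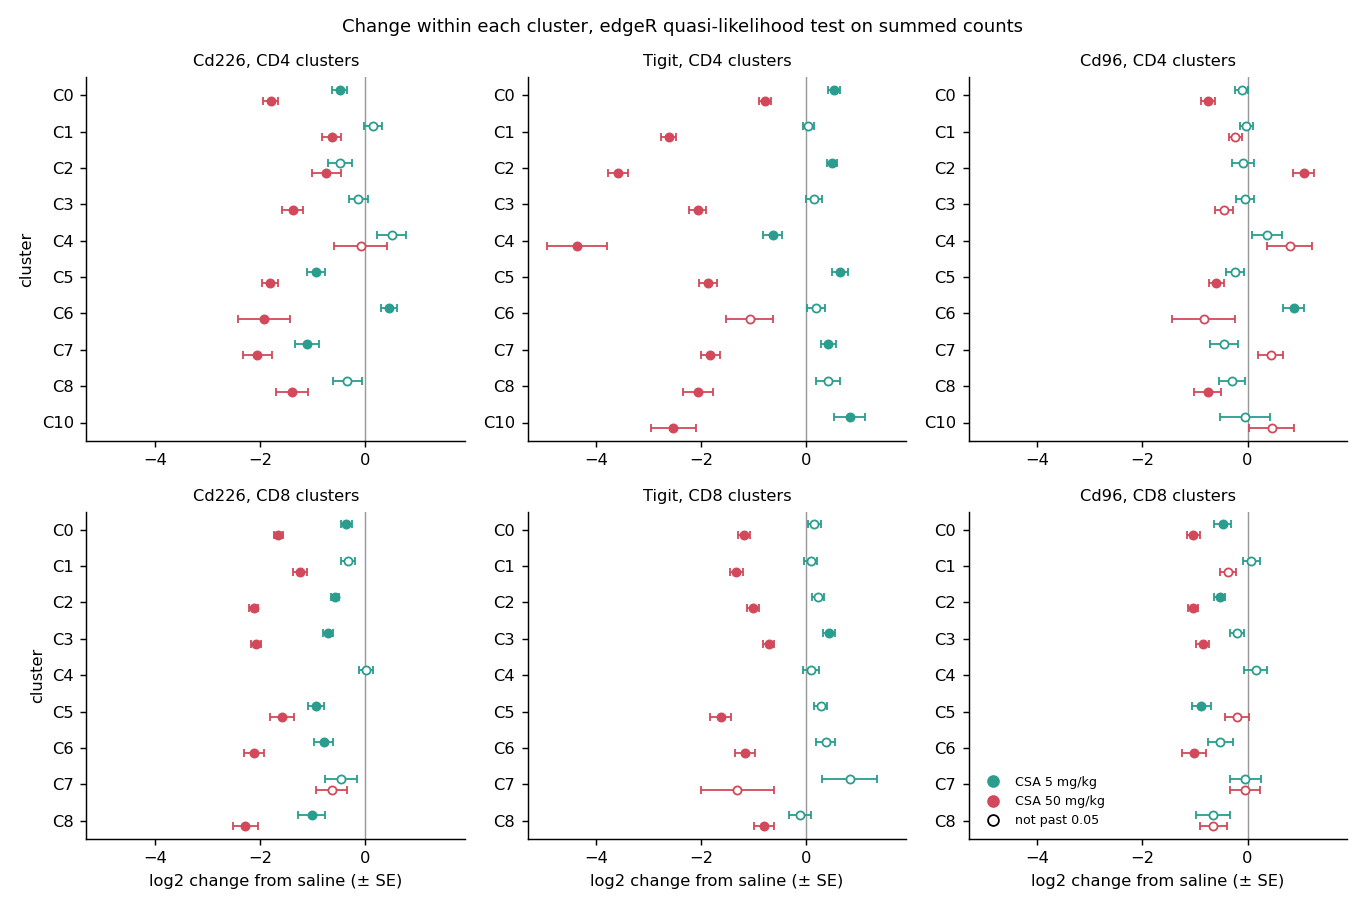
Log2 change of Cd226, Tigit and Cd96 within each cluster, CSA minus saline, at 5 and 50 mg/kg, from edgeR on counts summed per pool. Points are the fitted changes with their standard errors, filled where the adjusted p is under 0.05; Cd96 rises in CD4+ C2 (1.07) and falls in CD4+ C0 (-0.75) at 50 mg/kg.

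A sum can fall because clusters change in share or because levels change within them, and the sum can be set beside its value with the cluster shares of the saline group held fixed. The clusters were made from these counts and some are named by Cd226, so this does not separate share from level. A change of what a cluster holds was not tested. In CD4+ T cells at 5 mg/kg, Cd226 was 71.7, 88.2 and 78.8 CPM as measured and 115.6, 136.9 and 129.0 CPM at saline shares, against 153.9, 146.0 and 159.8 with saline, over 11 clusters. The difference from saline was therefore -0.95 on the log2 scale as measured and -0.27 at fixed shares. At 50 mg/kg most of the Cd226 difference was still there at fixed shares, -1.71 against -1.99. For Tigit the values were 0.06 and 0.10 at 5 mg/kg and -2.11 and -2.39 at 50 mg/kg, and for Cd96 they were -0.05 and -0.41, then -0.38 and -0.58. In CD8+ T cells without C4 the values at fixed shares and as measured were -0.90 and -1.14, then -2.25 and -2.33 for Cd226. For Tigit they were -0.08 and -0.12, then -1.54 and -1.48. Both CD8+ values leave out C4 (Cd226-high cycling), which held 1015 cells with saline and 81 with 5 mg/kg, so that 77.09% to 99.46% of a pool's cells are covered. With saline, Cd226 was at 316.2 CPM without C4 and at 339.6 CPM over all CD8+ cells. A Cd226-high cluster that shrank is thus missing, so how close the 2 CD8+ values lie cannot be compared with CD4+ T cells. These are CPM without TMM scaling and carry the shift of the median given above.

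**Figure D4:**
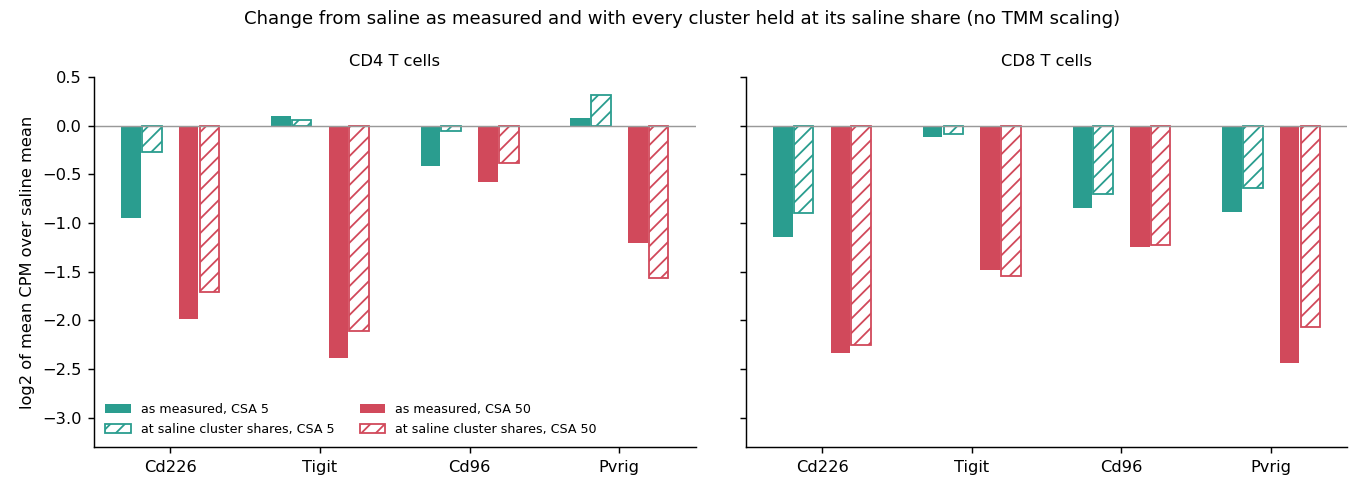
Log2 difference from saline of each gene in CD4+ and CD8+ T cells at 5 and 50 mg/kg, as measured and at the cluster shares of the saline group, in CPM without TMM scaling. The bars for Cd226 in CD4+ T cells at 5 mg/kg are at -0.95 and -0.27, while at 50 mg/kg they are at -1.99 and -1.71. All CD8+ bars leave out cluster C4.

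The ratio of Tigit to Cd226 UMIs is free of scaling, since both come from the same cells, and it was compared between groups only. In CD4+ T cells log2(Tigit/Cd226) was 0.99, 1.04 and 0.88 in the saline pools, 2.33, 1.82 and 1.96 with 5 mg/kg and 0.61, 0.39 and 0.67 with 50 mg/kg. The ratio was highest at 5 mg/kg and lowest at 50 mg/kg, without overlap. The CD8+ ratio was -0.46, -0.41 and -0.39 with saline, 0.90, 0.62 and 0.59 with 5 mg/kg and 0.36, 0.30 and 1.04 with 50 mg/kg. All CSA pools lay above all saline pools, and the doses overlapped. The mean difference at 5 mg/kg was 1.07 in CD4+ and 1.12 in CD8+ T cells, and at 50 mg/kg it was -0.41 and 0.99, the latter 0.75 without 50 mg/kg pool 3. A steady trend with dose over the 9 pools was not found (Jonckheere-Terpstra statistic, exact permutation test, two-sided, p = 0.388 in CD4+ and 0.123 in CD8+ T cells), where the smallest p that the 9 pools allow is 0.00119. That test looks only for a steady rise or fall. It cannot register the CD4+ order, with 5 mg/kg highest and 50 mg/kg lowest, so it does not bear on the differences between groups given above.

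**Figure D5:**
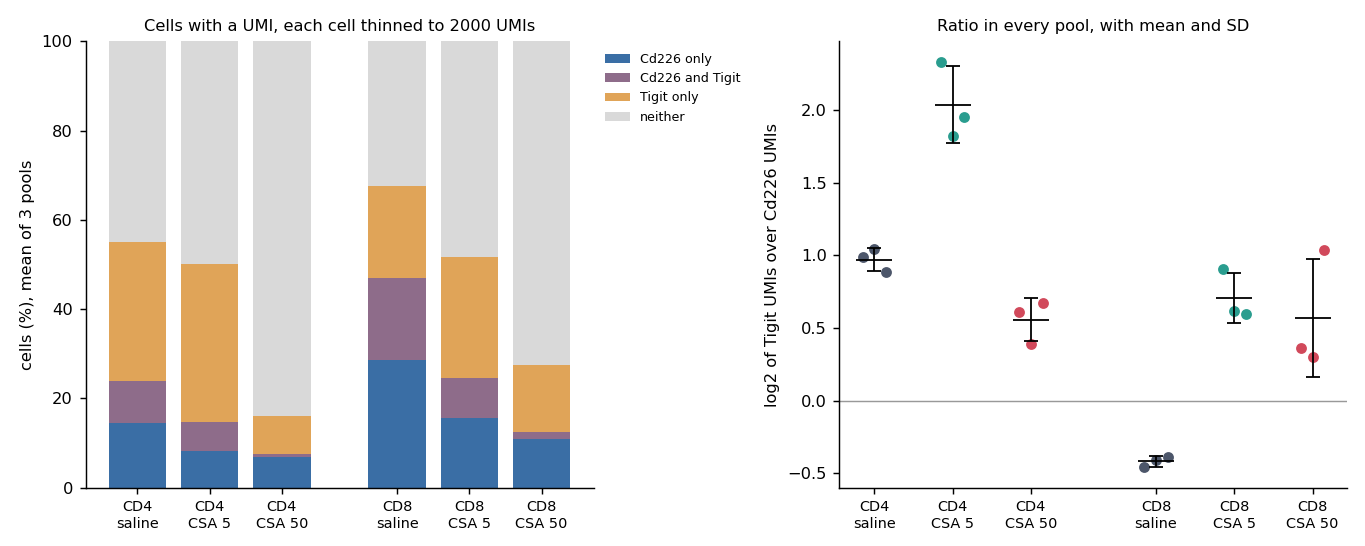
The stacked bars give the mean share of cells (%, thinned to 2000 UMIs) with a UMI of Cd226 alone, of both genes, of Tigit alone or of neither, and the points give log2 of Tigit over Cd226 UMIs in each of the 3 pools of a group with mean and SD. CD4+ cells with neither go from 44.9% with saline to 83.9% at 50 mg/kg, the CD4+ ratio rises from 0.97 to 2.04 at 5 mg/kg and is 0.56 at 50 mg/kg, and the CD8+ ratio goes from -0.42 to 0.70 and 0.57 (means of 3 pools).

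A lower sum can mean fewer cells with the RNA or less RNA per cell, which the sums cannot tell apart. Shares of cells with at least 1 UMI were counted after thinning each cell to 2000 UMIs. At that depth a cell with little of an RNA often has no UMI, so these shares do not tell the 2 apart either. They describe detection at equal depth. Cells of fewer UMIs were left out, 397, 464 and 80 CD4+ and 121, 83 and 8 CD8+ cells with saline, 5 and 50 mg/kg. In CD4+ T cells the share with Cd226 was 23.9% ± 2.15, 14.8% ± 1.89 and 7.49% ± 1.10 (SD, n = 3) in the same order of groups, against 33.4%, 27.7% and 20.9% unthinned. Tigit was found in 40.5% ± 1.09, 42.0% ± 2.18 and 9.17% ± 1.02 of cells (unthinned 55.0%, 60.2% and 21.0%). The Tigit share at 5 mg/kg thus differed from saline by less than its own SD, and that at 50 mg/kg was far below. Naive C9 cells, among the lowest clusters in both RNAs, had Cd226 in 10.4%, 9.3% and 0.813% of thinned cells and Tigit in 8.74%, 6.93% and, at 50 mg/kg, in none. The shares at 50 mg/kg thus lay near those of naive cells with saline and above those of naive cells in their own capture. Cells with both RNAs went from 9.31% to 6.52% and 0.504%, and cells with neither from 44.9% to 49.8% and 83.9%.

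Among CD8+ T cells, Cd226 was found in 47.1% ± 2.04, 24.7% ± 2.16 and 12.6% ± 1.83 of thinned cells (unthinned 68.2%, 55.2% and 33.6%) and Tigit in 38.9% ± 1.49, 35.9% ± 3.53 and 16.6% ± 3.38 (unthinned 61.6%, 66.0% and 41.3%). The share with both went from 18.4% to 8.94% and 1.72%, while that with Tigit alone was 20.5%, 27.0% and 14.9%. Naive C7 had Cd226 in 14.8%, 7.88% and 11.9% and Tigit in 7.35%, 8.72% and 1.79% of thinned cells, so the Cd226 share at 50 mg/kg was close to that of naive cells. Cd96 was found in 23.4%, 16.7% and 16.8% of thinned CD4+ and of thinned CD8+ cells in 23.5% with saline and 12.0% at 50 mg/kg, and Pvrig in 0.569% to 0.968% and 0.111% to 1.10%. The lower 5 mg/kg share of Cd96 in CD4+ T cells stands beside a TMM-normalized level that did not pass, and thinned counts carry no TMM scaling.

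Expanded clones, those whose TCR was found in more than 1 cell of a pool, were compared with single clones in the same pools. In CD4+ T cells Tigit was slightly higher in expanded clones, by 0.16 on the log2 scale (SE 0.05, edgeR adjusted p = 0.0188, 8 of 9 pools). The group means were 325, 375 and 64.4 CPM in expanded and 297, 329 and 56.3 CPM in single clones with saline, 5 and 50 mg/kg. The call was lost without 50 mg/kg pool 1 (0.12) or 5 mg/kg pool 3 (0.14), and within C0 the difference of 0.25 did not pass. Cd226 (0.04, adjusted p = 0.74) and Cd96 (-0.17, adjusted p = 0.0584) did not pass, in a comparison where 18.8% of 9011 genes did. Cd96 did pass with clones of at least 3 cells (-0.34, adjusted p = 0.00294) and without 5 mg/kg pool 1 (-0.20) or 3 (-0.19) or saline pool 3 (-0.20). In CD8+ T cells Cd96 was lower by 0.19 in expanded clones (SE 0.07, adjusted p = 0.0499, 7 of 9 pools), which was lost in 6 of 9 omissions of a pool, and Cd226 (0.01) and Tigit (0.02) did not differ beyond the spread, where 15.1% of 9227 genes passed.

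TEa cells, whose TCR has a known alloantigen, were compared with the other CD4+ T cells of the 7 pools that had at least 10 of them, 3 of saline, 3 of 5 mg/kg and 1 of 50 mg/kg. Cd96 was lower in TEa cells by 0.73 (SE 0.15, edgeR adjusted p = 0.000979) and Tigit by 0.37 (SE 0.10, adjusted p = 0.0227), both in 7 of 7 pools, where 2.03% of 9077 genes passed. The means were 81.7 and 52.2 CPM for Cd96 in TEa cells with saline and 5 mg/kg against 125.5 and 93.3 in the other cells, and 228.5 and 260 against 298.9 and 324.5 for Tigit. The Tigit call was lost without 5 mg/kg pool 3 (-0.35) or saline pool 2 (-0.36). Cd226 did not pass (-0.01, SE 0.14), and Pvrig had 0 UMIs in 264 TEa cells, which allows up to 2.13 CPM where the other cells held 4.42 with saline.

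Of the 6 listed ligands of these receptors and of CRTAM, only Pvr (CD155) was counted often enough to be tested for a change with CSA within a lineage. It was at 13.6, 8.79 and 12.9 CPM in CD4+ T cells with saline, 5 and 50 mg/kg and at 11.1, 7.65 and 7.88 in CD8+ T cells. At 5 mg/kg Pvr fell by 0.61 (SE 0.15, edgeR adjusted p = 0.002) in CD4+ and 0.54 (SE 0.15, adjusted p = 0.00425) in CD8+ T cells. At 50 mg/kg it fell by 0.49 in CD8+ T cells (adjusted p = 0.00318), which was lost outside the cycling clusters (-0.26, adjusted p = 0.243). In CD4+ T cells it differed by -0.07 (adjusted p = 0.65), and by library size by -0.51, which passed. Nectin2, Nectin3 and Nectin4 had at most 5 UMIs per lineage and group, Nectin1 at most 30 and Cadm1 at most 29, and the ligands on the spleen's other cells are outside these data. In the fit of both lineages Nectin1 and Cadm1 could also be tested, and the difference of their change between CD8+ and CD4+ T cells did not pass at either dose (0.72 and 0.75 for Nectin1, -0.86 and -1.24 for Cadm1).

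Of 18 listed partners in signalling and control of these receptors, all tested, 3 rose and 10 fell at 5 mg/kg and 6 rose and 11 fell at 50 mg/kg in CD4+ T cells, with medians of -0.19 and -0.28. Counts in CD8+ T cells were similar, as 4 rose and 11 fell, then 6 rose and 8 fell, with medians of -0.26 and -0.09, against medians near 0 over all genes. Over all genes 26.1% rose and 25.6% fell at 5 mg/kg and 34.7% and 35.8% at 50 mg/kg in CD4+ T cells, and in CD8+ T cells these shares were 29.9% and 30.3%, then 37.1% and 36.9%. The 14 of 18 partners called in CD8+ T cells at 50 mg/kg thus lay near the 74.0% of all genes. Fewer rose by library size, 0 and 4 in CD4+ and 0 and 1 in CD8+ T cells. Ptpn11, the phosphatase SHP-2 that ITIM-bearing receptors such as TIGIT recruit, fell from 155 to 126 and 45.2 CPM in CD4+ and from 132 to 100.2 and 43.7 CPM in CD8+ T cells (-1.78 and -1.58 at 50 mg/kg, edgeR adjusted p = 5.16e-16 and 1.28e-12). Fyn, the kinase downstream of CD226, fell by 0.89 and 1.09 at that dose. Cblb, a ubiquitin ligase that restrains TCR signals, fell by 0.32 in CD4+ and 1.14 in CD8+ T cells. These were named for the size of their change, and other partners rose at 50 mg/kg with TMM scaling. In CD4+ and CD8+ T cells Lck rose by 0.66 and 0.86, Arrb2 by 0.55 and 0.62 and Itgb2 by 0.58 and 0.22. Ptpn6, also a phosphatase gene, fell by 0.23 in CD4+ and rose by 0.53 in CD8+ T cells.

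Among the transcription factors of that list, Eomes, which is linked to loss of CD226 in CD8+ T cells, was at 9.79, 5.42 and 33.3 CPM in CD4+ T cells, lower than saline at 5 mg/kg (-0.84, edgeR adjusted p = 0.00224) and higher at 50 mg/kg (1.75, adjusted p = 3.8e-10). The CD8+ levels were 37.3, 30.1 and 54.6 CPM (-0.33 and 0.55). By library size the CD8+ difference at 50 mg/kg was 0.01 and did not pass, with pools of 46.09, 48.12 and 47.06 CPM against 42.5, 48.99 and 47.95 with saline, and outside the cycling clusters that at 5 mg/kg was -0.25 and did not pass. With TMM scaling its direction was opposite to that of Tigit at each dose in both lineages, while by library size the small Tigit difference in CD8+ T cells at 5 mg/kg (-0.07) had the sign of Eomes. Set beside Cd226 with TMM scaling, Eomes went the other way at 50 mg/kg only. At 5 mg/kg Cd226 fell as Eomes did, by 0.59 in CD4+ and 0.76 in CD8+ T cells. Prdm1 (Blimp-1) fell at 50 mg/kg by 0.70 in CD4+ and 1.28 in CD8+ T cells. Crtam, the receptor for CADM1, was lower at 50 mg/kg (-1.19 in CD4+, -0.29 in CD8+ T cells) and higher at 5 mg/kg in CD8+ T cells (0.30, edgeR adjusted p = 0.00405). The CD4+ change did not pass with thinned cells (-0.84, adjusted p = 0.068) and lay between -1.46 and -0.81 when a pool was left out. The CD8+ rise was lost with thinned cells (0.21) and outside the cycling clusters (0.23), and by library size the sign turned (-0.13, not passing).

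Of 12 genes listed as induced through calcineurin and NFAT, 9 of 12 tested in CD4+ and 8 of 11 in CD8+ T cells fell at 50 mg/kg and 1 rose in each, with medians of -1.15 and -1.92, where 35.8% and 36.9% of all genes fell and 34.7% and 37.1% rose. At 5 mg/kg 5 rose and 2 fell in CD4+ and 3 rose and 3 fell in CD8+ T cells, where 26.1% of all genes rose and 25.6% fell in CD4+ and 29.9% rose and 30.3% fell in CD8+ T cells. By library size 4 rose and 5 fell in CD4+ and 1 rose and 5 fell in CD8+ T cells. The list was chosen with earlier results of these data known, so these counts are a description.

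Over 58 groups of cells, each a cluster of a lineage in a treatment group, the genes whose level followed each receptor most closely were found among 6025 genes by Pearson's r of log2 CPM. They were Dgkh (0.90), Mtmr1 (0.888) and Itga4 (0.878) for Cd226, Rilpl2 (0.870), Pglyrp1 (0.839) and Batf (0.837) for Tigit, Prkx (0.794), Msn (0.791) and Dusp11 (0.766) for Cd96 and Fgl2 (0.751), Hip1 (0.713) and Atxn1 (0.689) for Pvrig. Itga4 encodes the integrin alpha 4 subunit, and Batf an AP-1 family factor of effector and follicular T cells. Between the 4 receptors r was lower, from 0.305 for Tigit and Cd96 to 0.616 for Cd226 and Pvrig, and 0.589 for Cd226 and Tigit. The 58 groups share pools, captures and depth, and these values are a description.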

How the data were processed

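The authors deposited raw counts of UMIs for each gene in each cell, made from 10x 5' libraries and filtered (Cell Ranger, Seurat 3.0.0 and mm10 per the submitters' processing notes). Hashtag counts, cluster, pool, TEa mark and clonotype were used as deposited, and the mitochondrial fraction of a cell's UMIs was computed by the authors and only looked at. The sum of counts equalled the deposited number in all 21204 cells. CD8+ clusters numbered from 1 in the table were matched to C0 to C8 by marker genes and cell numbers. Counts were summed per pool, lineage and, for clusters, pools of at least 10 cells, and tested by quasi-likelihood with edgeR 4.0.16 under R 4.3.3 (filterByExpr and TMM scaling; 1 fit of all 9 pools) and Benjamini-Hochberg adjustment over all genes (threshold 0.05). CD8+ against CD4+, expanded against single and TEa against other cells were fitted with pool as a block. The ratio used a pseudocount of 0.5 and scipy 1.17.1. Pools are separate pairs of mice.

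The 4 genes and all lists (markers, ligands, partners, NFAT-induced genes) were chosen with earlier results of these data known. The genes named were the 4 receptors, Pvr, and partners past the threshold with a log2 change of at least 1 at 50 mg/kg in a lineage. Lck, Arrb2, Itgb2 and Ptpn6 were named beside them after seeing the data, to show partners that rose. The most alike genes were the top 3 by r. Alternatives were DESeq2 1.42.0, library size scaling, no filter, hashtag number as a block, cells outside cycling clusters, thinned cells, at least 30 cells per pool, other clone definitions and leaving out each pool. Cells without a second strong hashtag, CD4+ cells without C8 and C11 (CD8+ without C6), and clones within C0 were added after seeing the data. The fit was tested on simulated data, where 91.5% (CD4+) and 88% (CD8+) of 200 genes made to change by a log2 value of 1 were recovered for 50 mg/kg against saline. Of the unchanged genes, 7 and 17 were called. As many genes were changed up as down, with no shift of the median, so the simulation does not test the choice of scaling. Pools of the same hashtag number did not deviate together (correlations -0.115 to 0.092), so the number does not pair pools. Intervals cover counting error only.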

Additional observations from a re-analysis of the deposited data

Results flagged for a closer look

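The effect of CSA differed between CD8+ and CD4+ T cells, by an interaction test over all genes in edgeR, for Cd96 at 5 mg/kg (a difference of the log2 changes of -0.28) and at 50 mg/kg for Cd226 (-0.40), Tigit (1.02), Cd96 (-0.54) and Pvrig (-1.17). For Cd96 at 5 mg/kg and Pvrig at 50 mg/kg the call was lost without any of 5 single pools, as given in the report. Both lineages of a group came from 1 capture and the same pools.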

How the results depend on the processing

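Of the main results, 311 values kept their direction and side of the threshold under an alternative other than leaving out a pool, and 28 did not. By library size, in CD4+ T cells Tigit at 5 mg/kg was 0.11, Cd96 at 5 and 50 mg/kg -0.43 and -0.56 and Pvrig at 50 mg/kg -1.04, and in CD8+ T cells Tigit and Pvrig at 5 mg/kg were -0.07 and -0.70. Outside the cycling clusters, Cd96 in CD4+ T cells was 0.08 at 50 mg/kg and 0.23 between the doses, Pvrig between the doses -0.95, and Cd96 in CD8+ T cells between the doses -0.18, with 2836 genes called in CD8+ T cells between the doses. With thinned cells, Cd96 in CD4+ T cells between the doses was 0.06 and Pvrig in CD8+ T cells at 5 mg/kg 0.07, with 2685 and 2653 genes called between the doses. DESeq2 gave 0.34 for Tigit in CD8+ T cells at 5 mg/kg, without a call. Pvr in CD4+ T cells at 50 mg/kg was 0.03 outside the cycling clusters and 0.00 without 50 mg/kg pool 3, and Crtam in CD8+ T cells at 5 mg/kg was -0.13 by library size. The cause was not tested for these. Cluster calls of the 4 genes at 5 mg/kg, 4 lower and 7 higher in CD4+ and 1 higher in CD8+ T cells, became 7, 2 and 0 by library size, 2 lower in CD4+ T cells with DESeq2 and 2 higher in CD8+ T cells with at least 30 cells per pool. In expanded clones, the differences within C0 were -0.15 for Cd226 and 0.25 for Tigit in CD4+ and -0.08 for Cd96 in CD8+ T cells, with clones of at least 3 cells -0.34 for Cd96 in CD4+ and -0.06 and -0.22 for Cd226 and Cd96 in CD8+ T cells, and by library size -0.18 for Cd96 in CD8+ T cells. Leaving out a pool gave -0.15 to -0.08 for Cd96 and -0.75 to -0.44 for Pvrig in CD4+ T cells at 50 mg/kg, -1.17 to -0.82 for Pvrig between the doses, cluster counts of 2 to 4 lower and 4 to 7 higher at 5 mg/kg and 1 to 2 higher at 50 mg/kg in CD4+ and 1 to 3 higher at 5 mg/kg in CD8+ T cells, interactions of -0.33 to -0.24 for Cd96 at 5 mg/kg and -1.30 to -1.02 for Pvrig at 50 mg/kg, and in TEa cells -0.09 to 0.08 for Cd226 and -0.41 to -0.35 for Tigit. In expanded clones it gave -0.02 to 0.07 and 0.00 to 0.04 for Cd226, 0.12 to 0.18 and -0.01 to 0.05 for Tigit and -0.20 to -0.13 and -0.23 to -0.15 for Cd96 in CD4+ and CD8+ T cells. With the replicate block (hashtag number), Tigit at 50 mg/kg was -1.94 in CD4+ and -0.90 in CD8+ T cells, and no call of the 4 genes changed. Leaving out cells with 2 strong hashtags, or the Fcer1g-high and regulatory T cell clusters, changed no call of the 4 genes. Few UMIs limit Pvrig everywhere, and few cells limit CD4+ C4, C6 and C9 at 50 mg/kg.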
